A study of Mus musculus with 12 samples.

Results

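Kidneys obstructed by unilateral ureteral obstruction (UUO) were compared by RNA sequencing between 3 mice with a β-catenin knockout and 3 of the wild type. Every gene that averaged 0.5 FPKM or more over the 6 libraries was described, 16166 of the 54532 genes listed, however it differed between genotypes. FPKM are fragments per kilobase of gene length, scaled by a factor for each library. Kidney RNA of C57BL/6 mice was sequenced, 1 library per mouse, and a second experiment of the series is not described here. UUO was a permanent ligation of the left ureter, and both groups had it, so no library shows the kidney before obstruction. The number of days after surgery is not given in the sources used here. The knockout mice (Ksp-β-catenin-/-) carried floxed β-catenin alleles and a Cre recombinase under the promoter of Ksp-cadherin, a cadherin of kidney tubules. This driver acts in the collecting duct, the loop of Henle and the distal tubule, and the study describes loss of β-catenin in proximal tubules too, in one place as most of them and in another as a partial loss. Kidney RNA also comes from cells other than tubule cells, and the study describes no Cre activity in those. The methods describe purchased male wild-type C57BL/6 mice, aged 6 to 8 weeks, and name no floxed allele or Cre in them. The stock number of the knockout mice contains the label B6N, and no substrain is named for the wild-type mice. The age and sex of the knockout mice are not given, and effects of the deletion, of Cre and of the source or substrain of the mice cannot be told apart.

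β-catenin links cadherins to actin at adherens junctions, and on Wnt signaling it enters the nucleus and switches on genes together with TCF/LEF factors. In an obstructed kidney the tubule epithelium loses transporters and metabolic enzymes, macrophages and other leukocytes enter the interstitium, and fibroblasts deposit collagen. The proximal tubule does most of the reabsorption of glucose, phosphate, amino acids and filtered protein, while the loop of Henle and the distal segments set the final salt and water balance.

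Between 16696210 and 18076032 reads fell in genes per library. FPKM summed to 346240 to 420601 in knockout mice and 304720 to 339519 in wild-type mice, and rescaling every library to 1 total (TPM) moved the median log2 fold change of all genes from 0.01 to −0.19. Fold changes below are on the log2(FPKM + 1) scale, knockout over wild type, and a gene was called at a Benjamini-Hochberg adjusted p under 0.05 from limma. Y-linked genes were expressed and Xist was at most 0.0220 FPKM in all 6 libraries. Nnt, a substrain check gene, was at 0.107, 0.179 and 0.0880 FPKM in knockout mice and 0.117, 0.0759 and 0.125 FPKM in wild-type mice. These values lay under the filter of 0.5 FPKM, and the substrain of the mice was not tested. Ctnnb1 itself (ENSMUSG00000006932, chromosome 9 of GRCm38, 120929216 to 120960507) was at 84.7, 71.4 and 71.7 FPKM in knockout mice and 91.2, 86.7 and 98.5 FPKM in wild-type mice. Every knockout library lay below every wild-type library, but the difference did not pass the test (log2 fold change −0.28, standard error 0.13, adjusted p = 0.189), and it did not pass with any single library left out. Cdh16, whose promoter drives the Cre, was at 332, 288 and 310.2 FPKM in knockout mice and 273, 255 and 276 FPKM in wild-type mice (adjusted p = 0.342).

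Some libraries stood apart from the others of their genotype. The 9 markers of urothelium, the lining of the renal pelvis and ureter, summed to 112, 2.24 and 43.1 FPKM in knockout mice and 1.62, 2.88 and 1.73 FPKM in wild-type mice, so they were high in knockout replicates 1 and 3 alone. Upk1b, a uroplakin, was at 15.8, 0.0903 and 5.36 FPKM in knockout mice and 0.0493, 0.128 and 0.0845 FPKM in wild-type mice. The 6 neutrophil markers summed to 48.4, 15.2 and 21.0 FPKM in knockout mice and 33.5, 33.1 and 575 FPKM in wild-type mice, high in wild-type replicate 3. Its S100a8 value was the highest of 9.58, 10.1 and 183 FPKM in wild-type mice, against 13.9, 3.98 and 6.24 FPKM in knockout mice. Haemoglobin and red cell genes summed to 689 FPKM in knockout replicate 1 and 302 FPKM in wild-type replicate 3, and to between 52.7 and 171 FPKM in the other libraries. No urothelium, neutrophil or red cell gene was called with all 6 libraries. Without knockout replicate 2, all 9 urothelium markers were called higher. Upk1b, Upk2 and Krt15 passed the filter of 0.5 FPKM only through knockout replicates 1 and 3, so this count is no separate support. The part of these cells in the results below was not tested, and values without single libraries are given with them.

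Of the 16166 genes, 1709 (10.6%) were called, 1004 (6.21%) higher and 705 (4.36%) lower in knockout mice. In all of them the 3 knockout values lay on 1 side of the 3 wild-type values. Among all genes tested, 3169 (19.6%) had every knockout value above every wild-type value and 2573 (15.9%) had every one below. The genes called higher were the more abundant, with a median level of 17.3 FPKM against 5.48 FPKM for those called lower and 5.72 FPKM for all tested. Among genes at 20 to 100 FPKM, 15.6% were called higher and 3.73% lower, whereas among genes at 1 to 5 FPKM 2.9% were called higher and 5.45% lower. Most changes were moderate, with a median absolute log2 fold change of 0.86 for genes called higher and 0.91 for genes called lower. A change of at least 2 log2 units was found in 38 genes called higher and 16 called lower. Calls depended on single libraries, since 129 of the 1004 and 94 of the 705 were kept without wild-type replicate 2, and 903 and 574 without knockout replicate 3. On the TPM scale 570 of the genes called higher and all 705 called lower kept their calls, and the split of calls moved from 58.7% higher to 32.9% higher.

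**Figure D1:**
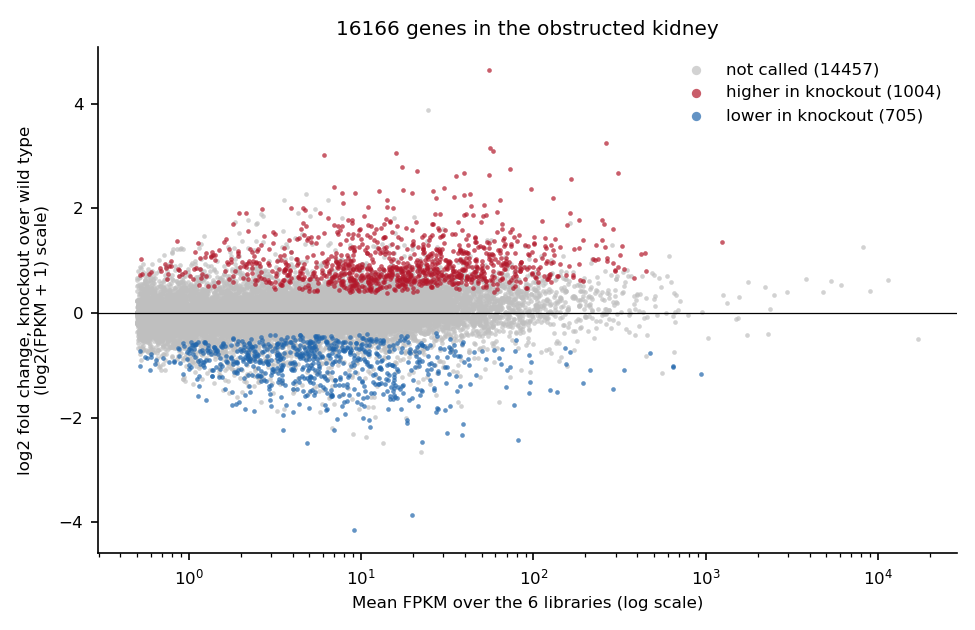
Log2 fold change of FPKM + 1 (knockout over wild type, vertical axis) against the mean FPKM over the 6 libraries (horizontal axis, log scale), 1 point per gene, for 16166 genes. Red points are the 1004 genes called higher, blue points the 705 called lower and gray points the rest, and the share of red points is larger at 20 to 100 FPKM (15.6%) than at 1 to 5 FPKM (2.9%).

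Markers of the nephron were called higher from most genes of the proximal convoluted tubule to none of the podocyte. Differences between lists, here and below, were not tested. Their counts stand beside 6.21% of all genes called higher and 4.36% called lower. Among all genes at 20 to 100 FPKM the share called higher was 15.6%. The lists were chosen with earlier results of these data known, so their counts describe the data and are no separate support. In bulk RNA, fewer cells of a type and less RNA per cell cannot be told apart. Of 14 markers of the proximal convoluted tubule, the first stretch after the glomerulus, 12 were higher and none was lower, with a median log2 fold change of 1.23. The proximal straight tubule had 7 of 12 higher and a median of 0.97, and the thick ascending limb of the loop of Henle 4 of 12 and 0.59. Of 13 markers of the distal convoluted and connecting tubule 2 were higher and 1 lower (median 0.19), of 11 of principal cells 1 was higher (median 0.11) and of 14 of intercalated cells 1 was lower (median −0.12). None of 12 podocyte markers was called in either direction (median −0.23). Leaving out knockout replicates 1, 2 and 3 in turn, 6, 5 and 12 markers of the convoluted part were called higher, and leaving out wild-type replicates 1, 2 and 3, 3, 3 and 9. In the straight part 1 and in the thick limb 1 was called higher without wild-type replicate 2, and 7 and 4 without knockout replicate 3. On the TPM scale, where all genes had a median of −0.19, the medians of distal convoluted tubule and principal cell markers turned to −0.02 and −0.10. On that scale 6 markers of the convoluted part, 5 of the straight part and 3 of the thick limb were called higher.

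**Figure D2:**
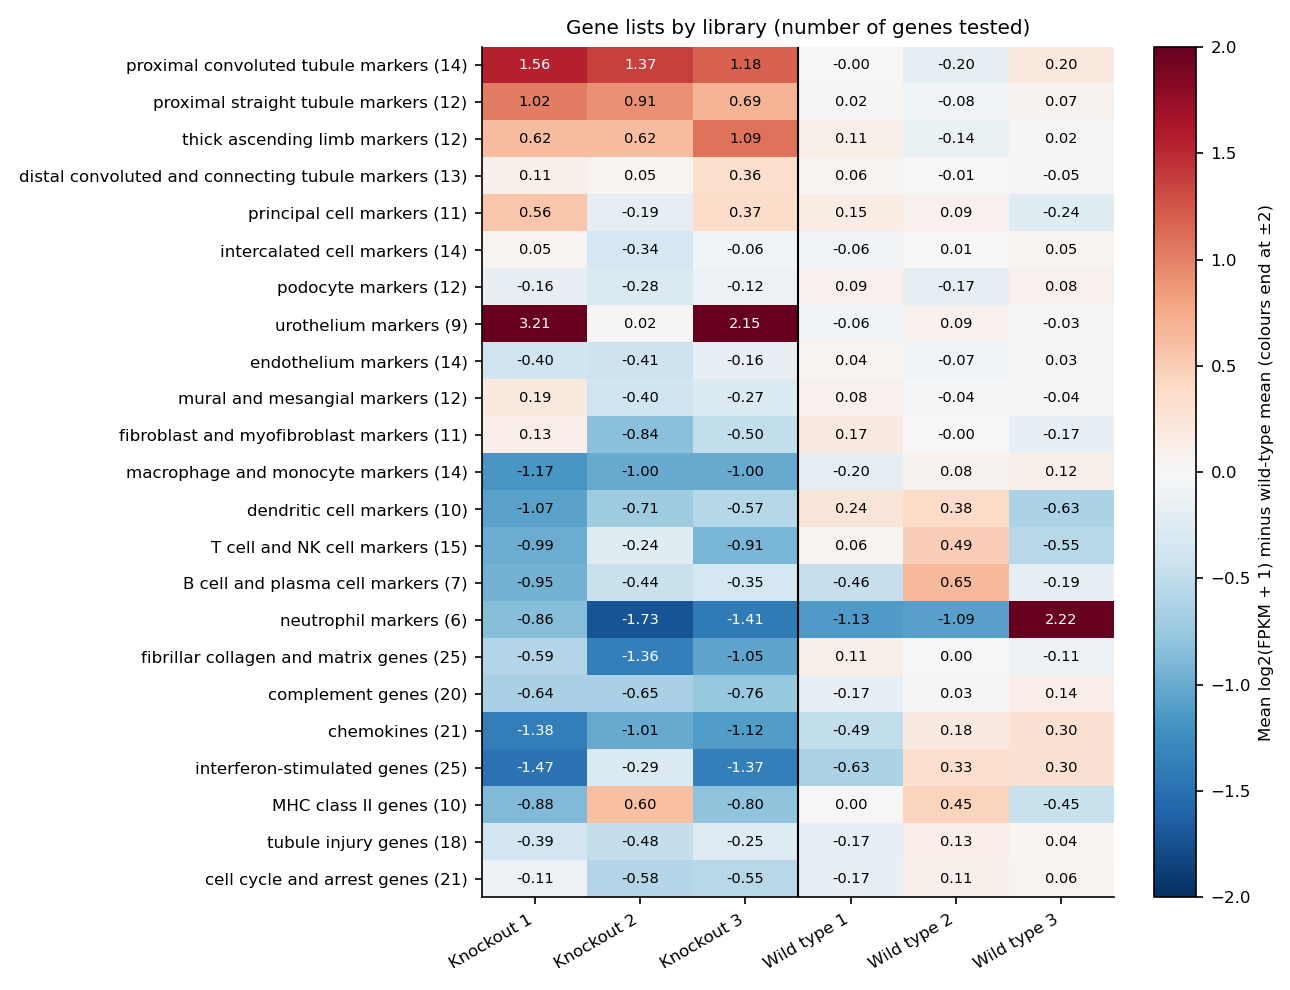
Mean log2(FPKM + 1) of the genes of 23 lists in each library, minus the mean of the 3 wild-type libraries, with the value printed in each cell and the number of genes tested in parentheses. The proximal convoluted tubule row is between 1.18 and 1.56 in all 3 knockout libraries, while the urothelium row is high in knockout 1 and 3 alone and the neutrophil row in wild type 3 alone.

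In the proximal convoluted tubule, Slc34a1 (ENSMUSG00000021490, chromosome 13 of GRCm38, 55398187 to 55415592), the main sodium-phosphate cotransporter of the brush border, was at 629.9, 409 and 289 FPKM in knockout mice and 134, 149 and 133 FPKM in wild-type mice. The groups did not overlap, knockout replicate 1 was the highest, and the wild-type mice lay close together (log2 fold change 1.6, standard error 0.27, adjusted p = 0.0181). Slc6a19, which takes up neutral amino acids, was at 22.7, 28.6 and 37.8 FPKM in knockout mice and 8.04, 2.57 and 5.44 FPKM in wild-type mice (log2 fold change 2.34, standard error 0.34, adjusted p = 0.0132). Slc5a2, the glucose cotransporter SGLT2, was at 75.6, 39.6 and 43.3 FPKM in knockout mice and 19.5, 19.8 and 26.1 FPKM in wild-type mice (log2 fold change 1.19, standard error 0.25, adjusted p = 0.03002). All knockout values of both genes exceeded all wild-type values. Slc5a12, a lactate transporter, was 1 of the 2 markers not called, with 20.6, 29.2 and 57.03 FPKM in knockout mice and 19.5, 7.76 and 25.1 FPKM in wild-type mice, and the groups overlapped. The other was Cubn, at 19.8, 16.96 and 18.7 FPKM in knockout mice and 9.22, 8.24 and 16.2 FPKM in wild-type mice (adjusted p = 0.08505). Slc6a19 remained called in all 6 fits that left out 1 library. Slc34a1 was not called without knockout replicate 2 and wild-type replicates 1 and 2 (adjusted p up to 0.0663). Slc5a2 was not called without wild-type replicates 1 and 2 (adjusted p up to 0.104).

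In the straight part, Slc5a8, which carries lactate and short-chain acids, was at 35.9, 32.9 and 29.8 FPKM in knockout mice and 14.7, 11.4 and 11.5 FPKM in wild-type mice (log2 fold change 1.33, standard error 0.14, adjusted p = 0.00764). Aadat, an enzyme of lysine and kynurenine breakdown, was at 54.5, 29.6 and 36.3 FPKM in knockout mice and 14.5, 7.35 and 13.3 FPKM in wild-type mice (log2 fold change 1.699, standard error 0.295, adjusted p = 0.0183). Both groups were clearly separated in each gene. Slc7a13, which marks the last stretch of the proximal tubule, was at 24.2, 13.3 and 20.2 FPKM in knockout mice and 17.1, 18.1 and 13.2 FPKM in wild-type mice with overlapping groups (adjusted p = 0.567), and the flippase gene Atp11a was not called either, at 77.5, 82.6 and 83.96 against 95.5, 87.98 and 96.5 FPKM. Slc5a8 remained called in all 6 fits that left out 1 library. Aadat was not called without wild-type replicate 2 (adjusted p up to 0.0587).

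The apical transporters showed the same direction over a wider set. Of 24 transporters of sugar, phosphate, sulfate and amino acids, a list that shares genes with the segment markers, 17 were higher and none was lower, with a median of 0.96. Slc2a5, the fructose transporter GLUT5, was at 12.9, 17.5 and 7.31 FPKM in knockout mice and 1.98, 1.15 and 1.19 FPKM in wild-type mice (log2 fold change 2.42, standard error 0.29, adjusted p = 0.00908). Slc16a9, a carnitine and monocarboxylate carrier, was at 20.7, 22.03 and 17.8 FPKM in knockout mice and 8.48, 6.79 and 8.17 FPKM in wild-type mice (log2 fold change 1.26, standard error 0.13, adjusted p = 0.00764). Slc6a20b, a transporter of proline-like amino acids, was at 12.8, 11.9 and 10.3 FPKM in knockout mice and 4.67, 4.503 and 5.397 FPKM in wild-type mice (log2 fold change 1.11, standard error 0.12, adjusted p = 0.00814). The knockout values of these 3 genes lay above all wild-type values. Slc13a1, the sodium-sulfate cotransporter, was at 91.6, 130.5 and 122 FPKM in knockout mice and 89.4, 125 and 160.3 FPKM in wild-type mice, and its groups overlapped (log2 fold change −0.097). Slc2a5, Slc16a9 and Slc6a20b remained called in all 6 fits that left out 1 library. Of the list, between 5 genes (without wild-type replicate 2) and 17 (without knockout replicate 3) were called higher with 1 library left out. On the TPM scale 13 were called higher.

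Carriers of organic anions, cations and drugs had 11 of 25 genes higher and 1 lower (median 0.82). Slc22a8, the basolateral organic anion transporter OAT3, was at 81.2, 47.02 and 26.8 FPKM in knockout mice and 12.6, 5.25 and 7.902 FPKM in wild-type mice (log2 fold change 2.39, standard error 0.42, adjusted p = 0.0193). Slc47a1, the proton-coupled exporter MATE1 that clears organic cations into urine, was at 158, 157 and 165 FPKM in knockout mice and 88.02, 69.8 and 83.7 FPKM in wild-type mice (log2 fold change 0.99, standard error 0.13, adjusted p = 0.0116). The 3 knockout values of Slc47a1 were close together, and those of Slc22a8 were spread, with knockout replicate 3 the lowest. The gene called lower was the prostaglandin transporter Slco2a1, at 5.38, 5.11 and 5.87 FPKM in knockout mice and 8.37, 8.34 and 7.41 FPKM in wild-type mice (log2 fold change −0.49, standard error 0.104, adjusted p = 0.0305). Slc22a12, the urate exchanger URAT1, had a large change that did not pass the test, at 405, 274 and 97.9 FPKM in knockout mice and 72.6, 74.8 and 53.5 FPKM in wild-type mice (log2 fold change 1.73, adjusted p = 0.0613). Slc47a1 remained called in all 6 fits that left out 1 library. Slc22a8 was not called without knockout replicate 2 and wild-type replicate 2 (adjusted p up to 0.073). The call of Slco2a1 was kept in 1 of the 6 fits with a library left out (adjusted p up to 0.105). The number called higher in the list, with 1 library left out, lay between 2 (without knockout replicate 2 or wild-type replicate 2) and 13 (without knockout replicate 3).

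Of 24 genes of the brush border and of protein uptake, 8 were higher and none was lower (median 0.66). Mep1b, a subunit of the brush border protease meprin, was at 13.04, 16.99 and 12.6 FPKM in knockout mice and 4.64, 2.71 and 3.12 FPKM in wild-type mice (log2 fold change 1.77, standard error 0.19, adjusted p = 0.00814). Pdzk1, a scaffold that holds transporters in the brush border, was at 72.8, 83.4 and 54.6 FPKM in knockout mice and 27.9, 22.9 and 33.9 FPKM in wild-type mice (log2 fold change 1.28, standard error 0.202, adjusted p = 0.0153). Lrp2, which encodes megalin, the receptor that takes up filtered protein, was at 53.6, 49.5 and 59.9 FPKM in knockout mice and 27.1, 22.8 and 37.2 FPKM in wild-type mice (log2 fold change 0.91, standard error 0.19, adjusted p = 0.0276). In all 3 genes the groups were apart. Dab2, an adaptor of the same uptake route, was at 62.9, 71.1 and 66.6 FPKM in knockout mice and 60.4, 54.2 and 67.3 FPKM in wild-type mice and overlapped (log2 fold change 0.14), and so did Clcn5, the chloride-proton exchanger of its endosomes (log2 fold change 0.22). Mep1b remained called in all 6 fits that left out 1 library. Pdzk1 was not called without wild-type replicate 2 (adjusted p up to 0.0622). Lrp2 was not called without knockout replicates 1 and 2 and wild-type replicates 1 and 2 (adjusted p up to 0.0865). Without wild-type replicate 2, 2 genes of the list were called higher, and without knockout replicate 3, 11.

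Of 24 transcription factors and coregulators of the proximal tubule 6 were higher and none was lower, with a median of 0.31. Hnf4a, the nuclear receptor that holds proximal tubule identity, was at 112, 112 and 113 FPKM in knockout mice and 54.8, 45.3 and 74.1 FPKM in wild-type mice (log2 fold change 0.97, standard error 0.18, adjusted p = 0.0227). The 3 knockout values were nearly equal and the wild-type values were lower and more spread. Klf15, a Krüppel-like factor that controls amino acid and glucose use, was at 11.3, 14.2 and 19.7 FPKM in knockout mice and 5.67, 4.17 and 5.04 FPKM in wild-type mice (log2 fold change 1.405, standard error 0.201, adjusted p = 0.0132). Nr1h4, the bile acid receptor FXR, was at 58.8, 79.97 and 89.9 FPKM in knockout mice and 26.7, 33.4 and 43.2 FPKM in wild-type mice (log2 fold change 1.13, standard error 0.22, adjusted p = 0.0245). The other 3 genes called higher were Rxra, Esrra and Maf, with log2 fold changes of 0.73, 0.91 and 0.72. Pax8, at 25.5, 31.6 and 33.2 against 22.6, 20.2 and 29.6 FPKM, overlapped between genotypes. Hnf4a was not called without knockout replicates 1 and 2 and wild-type replicates 1 and 2 (adjusted p up to 0.0712). Klf15 was not called without wild-type replicate 2 (adjusted p up to 0.0565). Nr1h4 was not called without knockout replicate 2 and wild-type replicates 1 and 2 (adjusted p up to 0.0869). Of the list, 0 genes were called without wild-type replicate 2 and 7 without knockout replicate 3.

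In the thick ascending limb, Ppp1r1a, a phosphatase inhibitor of this segment, was at 33.8, 38.9 and 49.2 FPKM in knockout mice and 14.8, 9.199 and 11.5 FPKM in wild-type mice (log2 fold change 1.71, standard error 0.199, adjusted p = 0.00898). Slc12a1, the sodium-potassium-chloride cotransporter NKCC2 on which loop diuretics act, was at 46.6, 43.7 and 104 FPKM in knockout mice and 19.6, 9.14 and 19.9 FPKM in wild-type mice (log2 fold change 1.89, standard error 0.402, adjusted p = 0.03002). Knockout replicate 3 held more than the other knockout mice, and all 3 were above the wild-type mice. Cldn10, a tight junction channel for sodium, was at 32.8, 39.3 and 30.3 FPKM in knockout mice and 18.04, 18.7 and 17.6 FPKM in wild-type mice (log2 fold change 0.87, standard error 0.12, adjusted p = 0.01299). Umod, which encodes uromodulin, the most abundant protein of normal urine, was not called, at 377, 514 and 712 FPKM in knockout mice and 326, 254 and 388 FPKM in wild-type mice (adjusted p = 0.138). Egf, the growth factor made by the same segment, was not called either, at 2.54, 4.35 and 10.8 FPKM in knockout mice and 1.49, 0.952 and 2.31 FPKM in wild-type mice (adjusted p = 0.0974), although all knockout values exceeded the wild-type values. Ppp1r1a remained called in all 6 fits that left out 1 library. Slc12a1 was not called without knockout replicates 1 and 2 and wild-type replicates 1 and 2 (adjusted p up to 0.0889). Cldn10 was not called without wild-type replicate 2 (adjusted p up to 0.053).

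The more distal segments had single markers called in both directions, against 10.6% of all genes called. Slc12a3, the thiazide-sensitive cotransporter that defines the distal convoluted tubule, was at 56.9, 67.3 and 63.8 FPKM in knockout mice and 62.9, 47.8 and 73 FPKM in wild-type mice (log2 fold change 0.05, standard error 0.17). Wnk4, a kinase that regulates it, was at 45.03, 36.3 and 41.7 FPKM in knockout mice and 22.8, 20.3 and 23.96 FPKM in wild-type mice (log2 fold change 0.84, standard error 0.13, adjusted p = 0.0137). Trpm6, its magnesium channel, was lower, at 2.402, 2.096 and 3.096 FPKM in knockout mice and 4.56, 3.91 and 4.44 FPKM in wild-type mice (log2 fold change −0.59, standard error 0.14, adjusted p = 0.0371). In principal cells Aqp2, the vasopressin-regulated water channel, was at 469, 195 and 200.05 FPKM in knockout mice and 106, 115 and 81.5 FPKM in wild-type mice (log2 fold change 1.39, standard error 0.35, adjusted p = 0.0474), and knockout replicate 1 was far above the other libraries. The sodium channel subunits Scnn1a, Scnn1b and Scnn1g had log2 fold changes of 0.304, −0.03 and −0.26, none of them called. In intercalated cells the proton pump subunit Atp6v0d2 was lower, at 8.45, 6.85 and 11.4 FPKM in knockout mice and 15.3, 16.8 and 14.7 FPKM in wild-type mice (log2 fold change −0.77, standard error 0.17, adjusted p = 0.0353), and Foxi1, the factor that specifies these cells, was at 14.1, 7.49 and 9.96 FPKM in knockout mice and 8.57, 9.33 and 12.9 FPKM in wild-type mice with overlapping groups. In the podocyte, Nphs1 was at 3.61, 4.07 and 3.93 against 4.55, 3.31 and 4.82 FPKM and was not called. Wnk4 was not called without wild-type replicate 2 (adjusted p up to 0.0587). Trpm6 was not called without knockout replicates 1 and 2 and wild-type replicates 1, 2 and 3 (adjusted p up to 0.11). Aqp2 was not called without knockout replicate 2 and wild-type replicates 1, 2 and 3 (adjusted p up to 0.114). Atp6v0d2 was not called without knockout replicates 1 and 2 and wild-type replicates 1, 2 and 3 (adjusted p up to 0.116).

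Of 17 genes of β-catenin, its binding partners and the adherens junction, 1 was higher and 1 lower, a share near that of all genes (10.6% called), with a median of 0.04 (−0.18 on the TPM scale). Jup, which encodes γ-catenin, the close relative that can take the place of β-catenin at junctions, was at 41.6, 28.05 and 28.5 FPKM in knockout mice and 32.97, 28.7 and 26.2 FPKM in wild-type mice and overlapped (log2 fold change 0.14). Cdh1, the E-cadherin gene, was at 60.6, 53.5 and 57.3 FPKM in knockout mice and 48.5, 51.98 and 54.3 FPKM in wild-type mice (log2 fold change 0.14) and was not called. The gene called lower was Cdh11, a cadherin of mesenchymal cells, at 3.12, 1.82 and 2.72 FPKM in knockout mice and 15.99, 9.92 and 4.53 FPKM in wild-type mice (log2 fold change −1.52, standard error 0.38, adjusted p = 0.0482), and the gene called higher was Nectin1, at 14.4, 15.4 and 11.5 FPKM in knockout mice and 9.15, 6.75 and 8.63 FPKM in wild-type mice (log2 fold change 0.69, standard error 0.15, adjusted p = 0.0354). Cdh11 was not called without knockout replicates 1, 2 and 3 and wild-type replicates 1 and 2 (adjusted p up to 0.137). Nectin1 was not called without knockout replicates 1 and 2 and wild-type replicates 1, 2 and 3 (adjusted p up to 0.107).

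Of 12 genes that Wnt signaling commonly switches on as its own brakes or cofactors, 2 were called, both higher, and the median was −0.14 (−0.37 on the TPM scale, and from −0.28 to 0.07 with 1 library left out). Among all genes 10.6% were called, 6.21% of them higher and 4.36% lower. Notum (ENSMUSG00000042988, chromosome 11 of GRCm38, 120653788 to 120661175), a secreted enzyme that inactivates Wnt proteins, was at 3.69, 3.89 and 3.01 FPKM in knockout mice and 1.46, 0.754 and 0.709 FPKM in wild-type mice (log2 fold change 1.22, standard error 0.18, adjusted p = 0.0132). Sp5, a transcription factor induced by Wnt, was at 9.96, 7.84 and 5.07 FPKM in knockout mice and 3.58, 2.75 and 2.38 FPKM in wild-type mice (log2 fold change 1.11, standard error 0.23, adjusted p = 0.0274). Both were thus higher in every knockout mouse than in any wild-type mouse. Axin2, the most widely used readout of the pathway, was at 0.359, 0.228 and 0.286 FPKM in knockout mice and 1.57, 0.776 and 0.331 FPKM in wild-type mice, and Nkd2 at 1.14, 0.469 and 1.48 FPKM in knockout mice and 5.04, 5.76 and 1.37 FPKM in wild-type mice. Neither passed the test (adjusted p = 0.225 and 0.0994), and in both the wild-type mice varied several-fold, with replicate 3 at or near the knockout level. Without wild-type replicate 3, Nkd2 and its relative Nkd1, at 1.36, 0.951 and 1.16 FPKM in knockout mice and 3.38, 2.401 and 1.67 FPKM in wild-type mice, were called lower and 1 gene of the list was called higher. Notum was not called without wild-type replicate 2 (adjusted p up to 0.0565). Sp5 was not called without knockout replicates 1 and 2 and wild-type replicates 1, 2 and 3 (adjusted p up to 0.0951).

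Of 15 genes known as β-catenin targets in kidney fibrosis, 4 were lower and 1 higher (median −0.41). The genes called lower were the mesenchymal transcription factors Snai1, Snai2 and Twist1 and the hyaluronan receptor Cd44. Snai1 was at 4.02, 2.75 and 2.5 FPKM in knockout mice and 6.36, 6.26 and 5.55 FPKM in wild-type mice (log2 fold change −0.803, standard error 0.16, adjusted p = 0.0239). Cd44 was at 21.5, 23.2 and 24.04 FPKM in knockout mice and 33.3, 40.6 and 38.4 FPKM in wild-type mice (log2 fold change −0.68, standard error 0.12, adjusted p = 0.0181). Knockout and wild-type values did not overlap in these genes. Ace, the angiotensin-converting enzyme of the renin-angiotensin system, was higher, at 26.1, 23.97 and 15.6 FPKM in knockout mice and 12.9, 10.9 and 11 FPKM in wild-type mice (log2 fold change 0.83, standard error 0.19, adjusted p = 0.0392). Mmp7, at 2.503, 9.12 and 8.8 against 7.04, 8.199 and 43.04 FPKM, was not called, and wild-type replicate 3 was far above the other libraries. Spp1, which encodes osteopontin and was among the most abundant genes of the kidney, was at 10792, 17639.5 and 14478 FPKM in knockout mice and 18619.7, 19973 and 20584 FPKM in wild-type mice and was not called. Snai1 was not called without knockout replicate 2 and wild-type replicates 1 and 2 (adjusted p up to 0.087). Snai2 was not called without knockout replicates 1 and 2 and wild-type replicates 1 and 2 (adjusted p up to 0.142). Twist1 was not called without knockout replicates 1 and 2 and wild-type replicates 1, 2 and 3 (adjusted p up to 0.131). Cd44 was not called without knockout replicates 1 and 2 and wild-type replicate 2 (adjusted p up to 0.0725). Ace was not called without knockout replicates 1 and 2 and wild-type replicates 1, 2 and 3 (adjusted p up to 0.123).

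Beside transport, genes of antioxidant defense, lipid storage and kidney hormones were counted. Of 28 antioxidant and glutathione genes 9 were higher and none was lower, with a median of 0.62. Cat, the peroxisomal catalase, was at 310.1, 279 and 193 FPKM in knockout mice and 112, 101 and 111 FPKM in wild-type mice (log2 fold change 1.24, standard error 0.19, adjusted p = 0.0153). Nqo1, a quinone reductase, was at 57.1, 47.1 and 25.3 FPKM in knockout mice and 13.6, 8.94 and 8.91 FPKM in wild-type mice (log2 fold change 1.89, standard error 0.31, adjusted p = 0.0158). Knockout replicate 3 was the lowest knockout mouse in both, still above all wild-type mice. Gpx3, the plasma glutathione peroxidase that the proximal tubule secretes, was at 11475, 14181 and 8946 FPKM in knockout mice and 4196, 4248 and 5997 FPKM in wild-type mice and did not pass the test (adjusted p = 0.0505). Nfe2l2, the factor that controls many genes of this list, was at 42.5, 40.2 and 50.1 FPKM in knockout mice and 45, 44.9 and 58.5 FPKM in wild-type mice (log2 fold change −0.15, not called). Cat was not called without wild-type replicate 2 (adjusted p up to 0.066). Nqo1 was not called without knockout replicate 2 and wild-type replicate 2 (adjusted p up to 0.0673). The number called in the list, with 1 library left out, ran from 0 (without wild-type replicate 2) to 15 (without knockout replicate 3).

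Of 25 genes of lipid droplets and fatty acid synthesis 4 were higher and none was lower (median 0.33). They were the droplet coat genes Plin4 and Plin5, the triglyceride lipase Pnpla2 and the desaturase Scd1. Plin5, which ties droplets to mitochondria, was at 8.99, 9.005 and 5.53 FPKM in knockout mice and 1.63, 1.43 and 2.17 FPKM in wild-type mice (log2 fold change 1.67, standard error 0.198, adjusted p = 0.00908). Scd1 was at 46.6, 39.5 and 40.9 FPKM in knockout mice and 16.9, 2.02 and 10.7 FPKM in wild-type mice (log2 fold change 2.33, standard error 0.59, adjusted p = 0.0485). Plin2, the general marker of lipid droplets, was at 101, 131 and 47.9 FPKM in knockout mice and 43.9, 54.9 and 90.6 FPKM in wild-type mice and overlapped between genotypes (adjusted p = 0.439), and the synthesis genes Fasn and Acaca had log2 fold changes of 0.09 and 0.02, not called. Plin5 remained called in all 6 fits that left out 1 library. Plin4 was not called without wild-type replicate 2 (adjusted p up to 0.0604). Scd1 was not called without knockout replicates 1, 2 and 3 and wild-type replicate 3 (adjusted p up to 0.124). Pnpla2 was not called without knockout replicates 1 and 2 and wild-type replicates 1 and 2 (adjusted p up to 0.0734). The list held 8 genes called higher without knockout replicate 3 and 2 without knockout replicate 1 or 2 or wild-type replicate 2. In cholesterol synthesis 2 of 23 genes, Hmgcs1 and Ebp, were higher (median 0.17), with log2 fold changes of 0.502 and 0.73, against 6.21% of all genes. Without knockout replicate 3, 3 genes of this list were called, and none was with any other single library left out.

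Among 13 growth factor, hormone and receptor genes of the kidney 3 were higher and none was lower (median 0.51). Vdr, the vitamin D receptor, was at 62.02, 63.8 and 59.8 FPKM in knockout mice and 32.97, 26.7 and 32.9 FPKM in wild-type mice (log2 fold change 0.99, standard error 0.12, adjusted p = 0.00981). Fgf1, a growth factor, was at 40.6, 31.1 and 33.2 FPKM in knockout mice and 19.2, 12.96 and 16.03 FPKM in wild-type mice (log2 fold change 1.08, standard error 0.17, adjusted p = 0.0153). Guca2b, which encodes the hormone uroguanylin, was at 532, 817 and 496 FPKM in knockout mice and 227, 323 and 265 FPKM in wild-type mice (log2 fold change 1.15, standard error 0.24, adjusted p = 0.0284). In all 3 the lowest knockout mouse was above the highest wild-type mouse. Kl, which encodes klotho, the co-receptor of the phosphate-lowering hormone FGF23, was at 26.6, 26.02 and 30.5 FPKM in knockout mice and 22.99, 21.9 and 18.2 FPKM in wild-type mice (adjusted p = 0.0972) and was not called. Vdr remained called in all 6 fits that left out 1 library. Fgf1 was not called without wild-type replicate 2 (adjusted p up to 0.0565). Guca2b was not called without knockout replicates 1 and 2 and wild-type replicates 1, 2 and 3 (adjusted p up to 0.0896). Of the list, 1 gene was called higher without wild-type replicate 2 and 4 without knockout replicate 3. Of 13 protein-coding genes of the mitochondrial genome 1 was higher, mt-Co2, and 1 lower, mt-Nd3 (median 0.44), at 14.4, 22.6 and 17.8 FPKM in knockout mice and 37.9, 62.9 and 60.5 FPKM in wild-type mice for the latter. None of 18 genes of the sumo pathway was called with all libraries (median −0.12, and 1 called higher without knockout replicate 3), and of 13 genes of the LKB1 and AMPK kinases Prkaa2 and Prkag1 were higher (median 0.18, or −0.01 on the TPM scale, where Prkag1 alone kept its call). The share called higher over all genes was 6.21%. Prkaa2 was not called without knockout replicates 1 and 2 and wild-type replicates 1 and 2 (adjusted p up to 0.0931). Prkag1 was not called without knockout replicates 1 and 2 and wild-type replicates 1, 2 and 3 (adjusted p up to 0.0763).

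**Figure D3:**
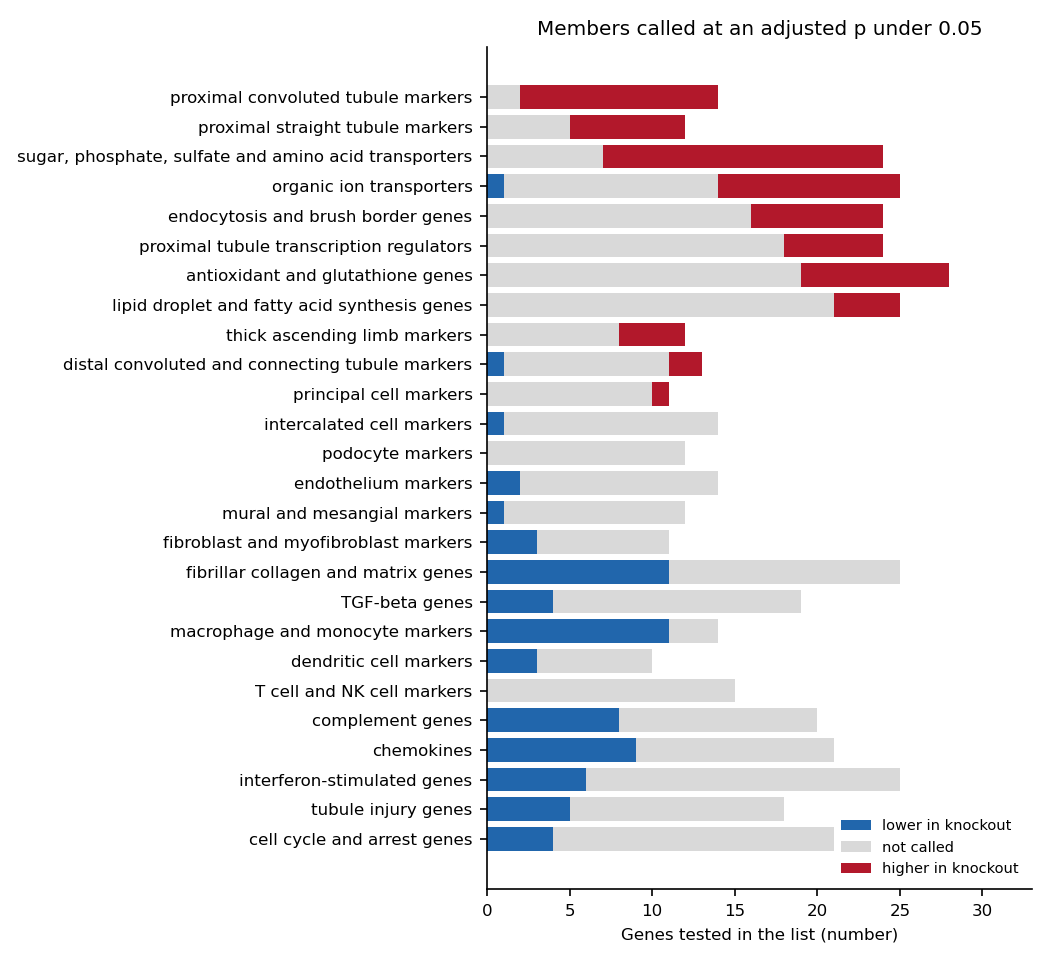
Number of tested genes of each list, stacked from 0, by their call from limma at an adjusted p under 0.05. Blue is lower in knockout mice, gray not called and red higher. Lists of the proximal tubule hold red parts and those of macrophages, matrix, complement and chemokines hold blue parts. The bars of podocytes and of T cells are gray throughout.

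Among the leukocyte lists, calls were most frequent for macrophages. Of 14 macrophage and monocyte markers 11 were lower and none was higher, with a median of −1.08, whereas of 10 dendritic cell markers 3 were lower (−0.82). None of 15 T cell and NK cell markers (−0.602), 7 B cell and plasma cell markers (−0.71) and 6 neutrophil markers (−1.36, and −0.33 without wild-type replicate 3) was called with all libraries. Leaving out knockout replicates 1, 2 and 3 in turn, 4, 5 and 10 macrophage markers were called lower, and leaving out wild-type replicates 1, 2 and 3, 7, 3 and 9. With 1 library left out, 0 (without knockout replicate 1 or wild-type replicate 1 or 2) to 6 (without wild-type replicate 3) dendritic cell markers and 0 to 3 (without wild-type replicate 3) T cell markers were called lower. All 15 T cell and NK cell markers had negative log2 fold changes. With all libraries, 4 of them were called lower on the TPM scale and 3 in a fit on read counts (voom). The macrophage markers called lower in these 2 fits were 12 and 11. The 15 T cell and NK cell markers summed to between 14.1 and 79.5 FPKM per library, and the 14 macrophage markers to between 381 and 991 FPKM. Fold changes of low genes are understated on the log2(FPKM + 1) scale, and with voom the medians of these 2 lists lay closer together. The medians above thus do not rank the size of the change between cell types.

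Adgre1, which encodes F4/80, the standard marker of mouse tissue macrophages, was at 8.596, 10.7 and 12.5 FPKM in knockout mice and 28.7, 38.4 and 32.7 FPKM in wild-type mice (log2 fold change −1.57, standard error 0.17, adjusted p = 0.00814). Cd68, a lysosomal macrophage protein, was at 18.03, 19.8 and 20.01 FPKM in knockout mice and 33.7, 38.7 and 34.2 FPKM in wild-type mice (log2 fold change −0.85, standard error 0.11, adjusted p = 0.0104). Fcgr1, the high-affinity IgG receptor, was at 6.62, 8.35 and 6.85 FPKM in knockout mice and 17.7, 30.3 and 26.7 FPKM in wild-type mice (log2 fold change −1.62, standard error 0.202, adjusted p = 0.00981). In these 3 genes the highest knockout mouse stayed below the lowest wild-type mouse by a wide margin. Ccr2, the chemokine receptor of incoming monocytes, was at 6.63, 8.396 and 8.88 FPKM in knockout mice and 23.8, 33.2 and 13.5 FPKM in wild-type mice (log2 fold change −1.37, standard error 0.296, adjusted p = 0.0309), and wild-type replicate 3 had the lowest wild-type value. Mertk, a receptor for the uptake of dying cells, was at 12.7, 14.9 and 17.5 FPKM in knockout mice and 11.6, 8.68 and 12.6 FPKM in wild-type mice and Cd14 at 73.3, 109 and 68.2 FPKM in knockout mice and 79.8, 109.7 and 269.7 FPKM in wild-type mice, and neither was called. The integrin gene Itgax of dendritic cells was at 1.38, 2.59 and 2.17 FPKM in knockout mice and 8.83, 11.6 and 3.86 FPKM in wild-type mice (log2 fold change −1.49, standard error 0.35, adjusted p = 0.0386), while Clec9a, a marker of their cross-presenting class, was at 0.529, 1.49 and 1.79 FPKM in knockout mice and 3.97, 5.24 and 1.07 FPKM in wild-type mice and overlapped. Cd3e of T cells was at 0.271, 0.3697 and 0.359 against 1.19, 1.44 and 0.548 FPKM and Cd8a at 0.751, 1.11 and 0.495 against 2.86, 3.52 and 1.26 FPKM (adjusted p = 0.0953 and 0.06803). Adgre1, Cd68 and Fcgr1 remained called in all 6 fits that left out 1 library. Itgax was not called without knockout replicates 1, 2 and 3 and wild-type replicates 1 and 2 (adjusted p up to 0.111).

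Complement genes had 8 of 20 lower and none higher (median −0.86). Serping1 (ENSMUSG00000023224, chromosome 2 of GRCm38, 84765387 to 84775444), the inhibitor of C1, was at 64.5, 60.8 and 85.98 FPKM in knockout mice and 199, 246 and 163 FPKM in wild-type mice (log2 fold change −1.51, standard error 0.202, adjusted p = 0.0116). C3ar1, the receptor for C3a on myeloid cells, was at 4.12, 5.095 and 5.96 FPKM in knockout mice and 13.7, 19.1 and 15.4 FPKM in wild-type mice (log2 fold change −1.49, standard error 0.16, adjusted p = 0.00814). Both separated the genotypes fully. C3, the central component and the most abundant of the list, was at 544, 828 and 678 FPKM in knockout mice and 473, 538 and 1071 FPKM in wild-type mice (log2 fold change 0.05, not called), with wild-type replicate 3 the highest. Cfd, factor D, was at 14.6, 0.136 and 0 FPKM in knockout mice and was listed at 0 in all wild-type mice, so its only sizeable value was in knockout replicate 1. Serping1 and C3ar1 remained called in all 6 fits that left out 1 library. When 1 library was left out, 4 (without knockout replicate 1 or wild-type replicate 2) to 8 genes of the list were called lower.

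Of 21 chemokine genes 9 were lower and none was higher (median −1.26). Ccl12, a ligand of the monocyte receptor CCR2, was at 8.98, 13.6 and 11.3 FPKM in knockout mice and 32.9, 87.5 and 76.2 FPKM in wild-type mice (log2 fold change −2.34, standard error 0.35, adjusted p = 0.0144). Ccl6, made by macrophages, was at 7.48, 8.37 and 11.2 FPKM in knockout mice and 20.9, 28.3 and 27.1 FPKM in wild-type mice (log2 fold change −1.404, standard error 0.18, adjusted p = 0.00981). Cx3cl1, the membrane-bound ligand of CX3CR1, was at 55.2, 41.8 and 38.1 FPKM in knockout mice and 99.01, 107 and 81.9 FPKM in wild-type mice (log2 fold change −1.08, standard error 0.18, adjusted p = 0.0161). For Ccl12 and Ccl6 every knockout mouse was far below every wild-type mouse. The neutrophil attractant Cxcl1 was at 71.2, 79.2 and 89.1 FPKM in knockout mice and 28.7, 39.8 and 101 FPKM in wild-type mice and the T cell attractant Ccl5 at 37.8, 145 and 20.5 FPKM in knockout mice and 30.6, 64.02 and 35.9 FPKM in wild-type mice, both with overlapping groups and not called. Ccl6 remained called in all 6 fits that left out 1 library. Ccl12 was not called without wild-type replicate 2 (adjusted p up to 0.0562). Cx3cl1 was not called without knockout replicate 2 and wild-type replicates 1 and 2 (adjusted p up to 0.0663). Without wild-type replicate 2, 1 chemokine gene was called lower, and without wild-type replicate 3, 10 were.

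Interferon-stimulated genes, which cells switch on after type I or type II interferon, had 6 of 25 genes lower and none higher, and a median of −0.997. Mx1 (ENSMUSG00000000386, chromosome 16 of GRCm38, 97447035 to 97462907), an antiviral GTPase, was at 1.54, 2.59 and 2.602 FPKM in knockout mice and 10.5, 11.2 and 9.81 FPKM in wild-type mice (log2 fold change −1.84, standard error 0.16, adjusted p = 0.00613). Oas2, a sensor of double-stranded RNA, was at 4.896, 5.37 and 6.01 FPKM in knockout mice and 12.1, 17.5 and 25.5 FPKM in wild-type mice (log2 fold change −1.54, standard error 0.24, adjusted p = 0.0153). Both were low in all 3 knockout mice. Other members were high in single mice of either genotype. Gbp2, a guanylate-binding protein, was at 30.9, 331 and 26.6 FPKM in knockout mice and 56.5, 155 and 136 FPKM in wild-type mice, with its highest value in knockout replicate 2 and its lowest in the other knockout mice. Isg15 was at 12.2, 29.02 and 9.23 FPKM in knockout mice and 27.1, 67.3 and 72.6 FPKM in wild-type mice and was not called (adjusted p = 0.0669). The 10 genes of MHC class II, which presents antigen and responds to interferon-γ, had none called (median −0.403). H2-Aa was at 155, 627 and 259 FPKM in knockout mice and 535, 780.2 and 335 FPKM in wild-type mice and its activator Ciita at 2.95, 12.2 and 2.57 FPKM in knockout mice and 6.31, 6.798 and 5.45 FPKM in wild-type mice. Knockout replicate 2 was the highest knockout library in both, and without knockout replicates 1 and 3, which leaves 1 knockout library, the list's median was 0.68. Mx1 remained called in all 6 fits that left out 1 library. Oas2 was not called without wild-type replicate 2 (adjusted p up to 0.065). With 1 library left out, 1 (without wild-type replicate 2) to 9 (without wild-type replicate 1) interferon-stimulated genes were called lower. On the TPM scale 16 were called lower.

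The 250 bases before the start of 3 genes called lower are shown because they hold a motif of interferon or inflammatory signaling. Cxcl9 is a chemokine induced by interferon-γ, Phf11b lies in a cluster of immune genes, and Fcgr4 encodes an IgG receptor of myeloid cells. Sequences are from RefSeq on GRCm38.p6, 5′ to 3′ on the gene's strand. In Phf11b (chr14:59341331-59341580, minus strand) and Fcgr4 (chr1:171018676-171018925, plus strand) the capitals mark a match to the interferon-stimulated response element, searched on both strands as GAAA, any 2 bases and GAAA. In Cxcl9 (chr5:92328080-92328329, minus strand) they mark a match to the motif of NF-kB, a factor of inflammatory signaling. Of the 25 protein-coding genes called lower with the largest changes, 21 had a promoter sequence. The interferon element was found in 3 of these and the NF-kB motif in 1. The TCF/LEF motif, searched as well, was found in 1, Wfdc17, and the motifs DR1, HNF4A and HNF1 in none. Of the 25 protein-coding genes called higher with the largest changes, 14 had a promoter sequence. The HNF1 and TCF/LEF motifs were each found in 1 of them, G6pc, and the other motifs in none.
Phf11b: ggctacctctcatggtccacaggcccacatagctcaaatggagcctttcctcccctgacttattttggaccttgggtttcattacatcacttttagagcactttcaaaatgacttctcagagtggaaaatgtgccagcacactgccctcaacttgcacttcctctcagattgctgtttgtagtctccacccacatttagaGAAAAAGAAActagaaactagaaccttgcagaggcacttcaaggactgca
Fcgr4: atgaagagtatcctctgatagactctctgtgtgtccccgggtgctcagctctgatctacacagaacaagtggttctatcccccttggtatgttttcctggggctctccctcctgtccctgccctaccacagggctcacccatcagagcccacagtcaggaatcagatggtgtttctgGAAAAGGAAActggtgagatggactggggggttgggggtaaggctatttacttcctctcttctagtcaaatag
Cxcl9: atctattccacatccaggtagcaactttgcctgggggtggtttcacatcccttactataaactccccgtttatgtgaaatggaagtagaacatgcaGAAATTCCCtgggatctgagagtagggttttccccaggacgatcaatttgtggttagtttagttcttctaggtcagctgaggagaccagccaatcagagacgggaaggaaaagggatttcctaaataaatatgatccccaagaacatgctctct
The match ended 41 bases before the start in Phf11b, 64 bases before it in Fcgr4 and 146 bases before it in Cxcl9. Phf11b was at 3.68, 9.502 and 6.32 FPKM in knockout mice and 23.5, 41.4 and 26.8 FPKM in wild-type mice (log2 fold change −2.11, standard error 0.32, adjusted p = 0.0144). Fcgr4 was at 6.43, 19.3 and 14.1 FPKM in knockout mice and 30.03, 60.4 and 54.9 FPKM in wild-type mice (log2 fold change −1.85, standard error 0.405, adjusted p = 0.0325). Cxcl9 was at 1.19, 2.27 and 1.29 FPKM in knockout mice and 13.7, 18.7 and 4.84 FPKM in wild-type mice (log2 fold change −2.23, standard error 0.43, adjusted p = 0.0236). The genotypes did not overlap in any of the 3, and knockout replicate 2 was the highest knockout mouse in each. Phf11a, the neighbour and close relative of Phf11b, held the same element 20 bases before its start and was at 1.24, 1.16 and 0.914 FPKM in knockout mice and 5.78, 9.11 and 5.91 FPKM in wild-type mice (log2 fold change −1.89, standard error 0.18, adjusted p = 0.00613), and reads shared between these related genes may have been divided by the counting. Of the promoters of genes called lower 9.04% held the element, against 2.82% of those of all tested genes and 3.04% of all 27025 promoters in the table. Since 68.3% of tested genes had a promoter in the table, under the 80% required, this comparison is void and nothing was read from it. A match describes letters in the window and does not show binding. Phf11a remained called in all 6 fits that left out 1 library. Phf11b was not called without wild-type replicate 2 (adjusted p up to 0.0565). Fcgr4 was not called without knockout replicate 1 and wild-type replicates 2 and 3 (adjusted p up to 0.109). Cxcl9 was not called without knockout replicates 1 and 2 and wild-type replicates 1 and 2 (adjusted p up to 0.0734).

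Genes of fibrosis and of the stromal cells were mostly lower where they were called. Of 25 genes of fibrillar collagen and other matrix 11 were lower and none was higher (median −1.08). Tnc, which encodes tenascin-C, a matrix protein of injured tissue, was at 2.33, 1.71 and 2.29 FPKM in knockout mice and 8.301, 9.95 and 12.9 FPKM in wild-type mice (log2 fold change −1.86, standard error 0.17, adjusted p = 0.00613). Bgn, the proteoglycan biglycan, was at 91.9, 45.9 and 62.3 FPKM in knockout mice and 187, 208 and 150.4 FPKM in wild-type mice (log2 fold change −1.48, standard error 0.26, adjusted p = 0.0188). Col3a1, a collagen of fibrotic scar, was at 32.9, 14.02 and 16.3 FPKM in knockout mice and 58.04, 52.3 and 50.7 FPKM in wild-type mice (log2 fold change −1.403, standard error 0.29, adjusted p = 0.0278). In each of them knockout replicate 1 held the highest knockout value, and all 3 knockout mice were below the wild-type mice. Col1a1, the main collagen of scar, was at 43.4, 12.7 and 14.6 FPKM in knockout mice and 53.8, 40.8 and 40.6 FPKM in wild-type mice. Knockout replicate 1 lay inside the wild-type range and the gene was not called (adjusted p = 0.132). Tnc remained called in all 6 fits that left out 1 library. Bgn was not called without wild-type replicates 1 and 2 (adjusted p up to 0.0741). Col3a1 was not called without knockout replicates 2 and 3 and wild-type replicates 1, 2 and 3 (adjusted p up to 0.0911). The number of genes called lower was 14 with knockout replicate 1 left out, 1 with wild-type replicate 2 left out and between 2 and 9 with any other library left out. On the TPM scale it was 17.

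Of 11 fibroblast and myofibroblast markers 3 were lower (median −0.44), of 12 mural and mesangial markers 1 (−0.37) and of 14 endothelial markers 2 (−0.298), with none higher. Over all genes tested, 4.36% were called lower. The mural and mesangial list was split, with 5 positive and 7 negative log2 fold changes. Pdgfra, the growth factor receptor of interstitial fibroblasts, was at 6.46, 5.02 and 10 FPKM in knockout mice and 20.7, 18.2 and 18.02 FPKM in wild-type mice (log2 fold change −1.33, standard error 0.21, adjusted p = 0.0157). Pdgfrb, its relative on pericytes, was at 21.3, 14.3 and 15.7 FPKM in knockout mice and 36.5, 34.4 and 30.1 FPKM in wild-type mice (log2 fold change −0.95, standard error 0.16, adjusted p = 0.0183). Vim, the mesenchymal filament vimentin, was at 32.96, 28.8 and 25.7 FPKM in knockout mice and 52.5, 61.3 and 49.1 FPKM in wild-type mice (log2 fold change −0.88, standard error 0.14, adjusted p = 0.0154). The 3 knockout mice were below all wild-type mice in these genes. Acta2, the smooth muscle actin of myofibroblasts, was at 78.4, 11.3 and 23.1 FPKM in knockout mice and 48.2, 54.5 and 39.3 FPKM in wild-type mice and was not called, with knockout replicate 1 above every wild-type mouse. That library was also the highest in the smooth muscle genes Myh11 (5.38, 0.959 and 1.103 against 1.19, 0.471 and 0.852 FPKM) and Cnn1 (5.03, 0.299 and 0.679 against 0.358, 0.215 and 0.387 FPKM). Of the endothelial genes, Eng, a TGF-β co-receptor, was at 45.3, 31.5 and 34.7 FPKM in knockout mice and 64.6, 80.5 and 60.9 FPKM in wild-type mice (log2 fold change −0.87, standard error 0.18, adjusted p = 0.026), while Cldn5 and Nos3 had log2 fold changes of −0.01 and −0.04, not called. Pdgfra was not called without knockout replicate 1 and wild-type replicates 1 and 2 (adjusted p up to 0.0648). Pdgfrb was not called without knockout replicate 2 and wild-type replicates 1 and 2 (adjusted p up to 0.073). Vim was not called without wild-type replicate 2 (adjusted p up to 0.0635). Eng was not called without knockout replicate 2 and wild-type replicates 1 and 2 (adjusted p up to 0.0881). Without wild-type replicate 2, 0 genes of these 3 lists were called.

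In TGF-β signaling, a main driver of matrix synthesis, 4 of 19 genes were lower and none was higher (median −0.37). The share called lower over all genes was 4.36%. These were the receptors Tgfbr1 and Tgfbr2, the latent binding protein Ltbp2 and Tgfbi, a matrix protein induced by the pathway. Tgfbi was at 17.5, 17.5 and 15.7 FPKM in knockout mice and 27.1, 35.3 and 54.8 FPKM in wild-type mice (log2 fold change −1.103, standard error 0.24, adjusted p = 0.0306). Tgfbr2 was at 27.99, 20.3 and 26.6 FPKM in knockout mice and 40.2, 39.6 and 38.7 FPKM in wild-type mice (log2 fold change −0.66, standard error 0.14, adjusted p = 0.0301). The ligand Tgfb1 was at 13.6, 11.4 and 9.81 FPKM in knockout mice and 14.8, 17.3 and 16.4 FPKM in wild-type mice (log2 fold change −0.45, adjusted p = 0.0778) and Ccn2, a target often used as a readout, at 44.5, 38.3 and 71.7 FPKM in knockout mice and 37.1, 47.1 and 70.1 FPKM in wild-type mice with overlapping groups. Tgfbi was not called without knockout replicates 1, 2 and 3 and wild-type replicate 2 (adjusted p up to 0.0928). Tgfbr2 was not called without knockout replicates 1 and 2 and wild-type replicates 1, 2 and 3 (adjusted p up to 0.0987). Tgfbr1 was not called without knockout replicates 1 and 2 and wild-type replicates 1, 2 and 3 (adjusted p up to 0.118). Ltbp2 was not called without knockout replicates 1 and 2 and wild-type replicates 1 and 2 (adjusted p up to 0.0881). None of the list was called without knockout replicate 1 or 2 or wild-type replicate 2.

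Genes of tubule injury and of cell division were called in part. Of 18 injury genes 5 were lower and none was higher (median −0.48). Havcr1, which encodes KIM-1, the protein that injured proximal tubule cells display, was at 353, 426 and 481 FPKM in knockout mice and 654, 972 and 964 FPKM in wild-type mice (log2 fold change −1.03, standard error 0.22, adjusted p = 0.0315). Clu, a secreted chaperone, was at 654, 444 and 633 FPKM in knockout mice and 1148, 1588 and 1134 FPKM in wild-type mice (log2 fold change −1.16, standard error 0.24, adjusted p = 0.0268). Anxa1, an annexin with anti-inflammatory action, was at 10.4, 6.7 and 11.03 FPKM in knockout mice and 21.8, 31.4 and 23.7 FPKM in wild-type mice (log2 fold change −1.37, standard error 0.21, adjusted p = 0.0146). The genotypes were apart in all 3. Lcn2, which encodes NGAL and is also made by neutrophils, was at 71.8, 94.6 and 108 FPKM in knockout mice and 109, 134 and 416 FPKM in wild-type mice and was not called, with its highest value in wild-type replicate 3, the library high in neutrophil markers. The keratin genes Krt19 and Krt18 followed single libraries, at 40.7, 7.39 and 37.4 against 18.5, 17.6 and 4.85 FPKM and 57.6, 26.1 and 62.3 against 58.6, 83.5 and 31.5 FPKM. Havcr1 was not called without knockout replicates 1 and 2 and wild-type replicates 2 and 3 (adjusted p up to 0.107). Clu was not called without knockout replicates 1 and 2 and wild-type replicates 1, 2 and 3 (adjusted p up to 0.0888). Anxa1 was not called without wild-type replicate 2 (adjusted p up to 0.0565). With 1 library left out, 0 (without wild-type replicate 2) to 5 (without knockout replicate 3) injury genes were called lower.

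Of 21 genes of the cell cycle and its arrest 4 were lower and none was higher (median −0.44), and all 4 were subunits of the MCM helicase that opens DNA for replication. Mcm4 was at 4.52, 4.34 and 4.74 FPKM in knockout mice and 7.897, 10.5 and 10.2 FPKM in wild-type mice (log2 fold change −0.92, standard error 0.13, adjusted p = 0.0125). Mcm3 was at 3.31, 4.37 and 3.84 FPKM in knockout mice and 6.45, 9.41 and 7.28 FPKM in wild-type mice (log2 fold change −0.84, standard error 0.16, adjusted p = 0.0215). The mitotic genes Mki67 and Top2a, at 4.67, 1.41 and 1.57 against 4.23, 5.02 and 5.2 FPKM and 3.86, 1.49 and 1.405 against 3.58, 5.84 and 6.32 FPKM, were not called. Knockout replicate 1 lay in the wild-type range in both, and the other knockout mice lay below it. Cdkn1a, the arrest gene p21, was at 20.3, 17.99 and 25.6 FPKM in knockout mice and 10.3, 13.1 and 15.9 FPKM in wild-type mice (adjusted p = 0.0635), above the wild-type values in each knockout mouse but not called. Mcm4 was not called without wild-type replicate 2 (adjusted p up to 0.0529). Mcm3 was not called without knockout replicate 1 and wild-type replicate 2 (adjusted p up to 0.0688). Mcm2 was not called without knockout replicates 1 and 2 and wild-type replicates 1, 2 and 3 (adjusted p up to 0.124). Mcm5 was not called without knockout replicates 1, 2 and 3 and wild-type replicates 2 and 3 (adjusted p up to 0.106). The number of genes called lower was 6 with knockout replicate 1 left out and 0 with wild-type replicate 2 left out. Among 16 immediate early and heat shock genes, which respond to handling and stress, Egr2 was lower and the others were not called (median 0.15).

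**Figure D4:**
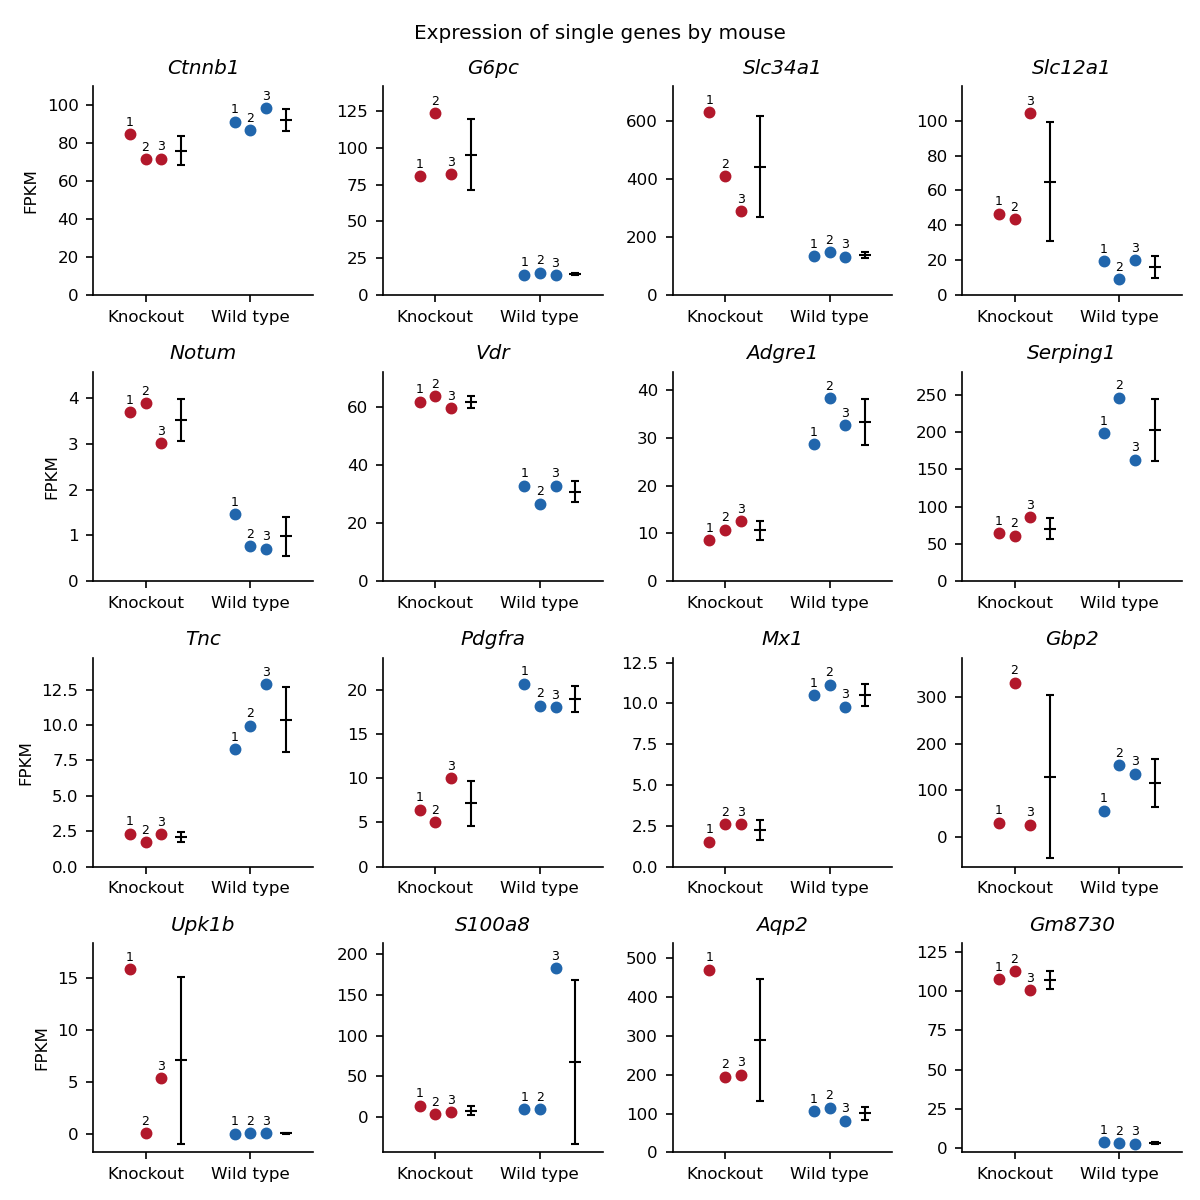
FPKM of single genes in each mouse, with the replicate number beside each point, and the mean with its SD over 3 mice as a bar, each panel on its own linear axis. Slc34a1, Notum and Gm8730 lie apart upward and Adgre1 and Mx1 apart downward in knockout mice, while the high values of Upk1b, S100a8 and Gbp2 come from 1 or 2 mice.

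Genes were also ranked by the difference of their mean FPKM, which favors abundant ones. Among those with the largest gains, Miox, a renal enzyme of inositol breakdown, was at 662, 277 and 237 FPKM in knockout mice and 101, 141 and 72.9 FPKM in wild-type mice (log2 fold change 1.79, standard error 0.41, adjusted p = 0.0385), with knockout replicate 1 the highest. Napsa, an aspartic protease of the proximal tubule lysosome, was at 353, 567 and 268 FPKM in knockout mice and 122, 98.6 and 125 FPKM in wild-type mice (log2 fold change 1.71, standard error 0.27, adjusted p = 0.0155). The groups were apart in both. Among the genes with the largest losses, Tmsb4x, which encodes the actin-binding peptide thymosin β4, was at 410.2, 405 and 446 FPKM in knockout mice and 792, 1153 and 675 FPKM in wild-type mice (log2 fold change −1.02, standard error 0.23, adjusted p = 0.0336). Actb, the β-actin gene often used to normalize measurements, was also lower, at 310.3, 372 and 377 FPKM in knockout mice and 586, 616 and 600.4 FPKM in wild-type mice (log2 fold change −0.77, standard error 0.15, adjusted p = 0.0255). Ctss, a lysosomal protease of antigen-presenting cells, was at 70.99, 144 and 118 FPKM in knockout mice and 226, 333 and 266 FPKM in wild-type mice (log2 fold change −1.34, standard error 0.28, adjusted p = 0.0283). Miox was not called without knockout replicates 1 and 2 and wild-type replicates 1, 2 and 3 (adjusted p up to 0.099). Napsa was not called without wild-type replicate 2 (adjusted p up to 0.0663). Tmsb4x was not called without knockout replicates 1 and 2 and wild-type replicates 1 and 2 (adjusted p up to 0.0986). Actb was not called without knockout replicates 1 and 2 and wild-type replicates 1, 2 and 3 (adjusted p up to 0.0889). Ctss was not called without knockout replicate 1 and wild-type replicates 1, 2 and 3 (adjusted p up to 0.0987).

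Several of the smallest p-values belonged to genes outside the lists. Gm8730 (ENSMUSG00000063696, chromosome 8 of GRCm38, 102864845 to 102865798), annotated as a processed pseudogene, had the smallest p of all genes, at 108, 113 and 101 FPKM in knockout mice and 3.78, 3.25 and 2.96 FPKM in wild-type mice (log2 fold change 4.64, standard error 0.11, adjusted p = 1.39e-05). This came from 1767, 1711 and 1708 reads in knockout mice and 70, 58 and 48 reads in wild-type mice, and reads shared with a parent gene cannot be told apart from its own. Car14, a carbonic anhydrase of the tubule membrane, was at 13.8, 14.1 and 12.1 FPKM in knockout mice and 2.47, 1.93 and 2.62 FPKM in wild-type mice (log2 fold change 2.11, standard error 0.12, adjusted p = 0.00285). Hpd, an enzyme of tyrosine breakdown, was at 9.203, 15.2 and 10.4 FPKM in knockout mice and 0.702, 0.301 and 0.581 FPKM in wild-type mice (log2 fold change 3.02, standard error 0.197, adjusted p = 0.003596). Of the genes called lower, Aldh1a2, which makes retinoic acid, was at 15.2, 13.2 and 13.1 FPKM in knockout mice and 52.3, 77.4 and 63.2 FPKM in wild-type mice (log2 fold change −2.12, standard error 0.16, adjusted p = 0.00426). Tlr9, the sensor of unmethylated DNA, was at 1.25, 1.61 and 1.49 FPKM in knockout mice and 4.92, 4.76 and 5.65 FPKM in wild-type mice (log2 fold change −1.32, standard error 0.12, adjusted p = 0.00613). Knockout and wild-type values did not overlap in any of these 5 genes. Gm8730, Car14, Hpd, Aldh1a2 and Tlr9 remained called in all 6 fits that left out 1 library.

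Over all genes, 111 called higher and 85 called lower stayed called in all 6 fits that left out 1 library, and 110 and 82 of them also did so under every other alternative. Among those with the largest changes upward were Ttr, Cyp2d9 and Rdh16f2, with log2 fold changes of 3.05, 2.79 and 2.76. Ttr, the transport protein of thyroxine and retinol, was at 21.5, 35.1 and 30.5 FPKM in knockout mice and 3.59, 1.18 and 3.48 FPKM in wild-type mice (log2 fold change 3.05, standard error 0.32, adjusted p = 0.00782). Downward they held Clec4a1, a C-type lectin of myeloid cells, at 6.12, 5.28 and 8.24 FPKM in knockout mice and 21.3, 34.5 and 35.4 FPKM in wild-type mice (log2 fold change −2.04, standard error 0.23, adjusted p = 0.0086), and Ifi209, an interferon-inducible gene, at 1.802, 3.01 and 3.602 FPKM in knockout mice and 9.98, 13.7 and 16.6 FPKM in wild-type mice (log2 fold change −1.92, standard error 0.23, adjusted p = 0.00935). All of these had knockout and wild-type values apart.

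Of 23 tested genes within 1 Mb of Ctnnb1 on chromosome 9, Ctnnb1 included, 1 was called, where 10.6% of all genes were. This was the macrophage gene Cx3cr1 (ENSMUSG00000052336, chromosome 9 of GRCm38, 119901616 to 120069879), the fractalkine receptor, at 7.97, 8.82 and 7.07 FPKM in knockout mice and 20.4, 18.4 and 14.4 FPKM in wild-type mice (log2 fold change −1.06, standard error 0.15, adjusted p = 0.0132). Ulk4 and Trak1, on the other side of Ctnnb1, were at 1.09, 0.466 and 0.662 against 0.861, 0.446 and 0.6298 FPKM and 10.04, 9.07 and 9.12 against 7.59, 6.58 and 7.69 FPKM, neither called. Cx3cr1 was not called without wild-type replicate 2 (adjusted p up to 0.057).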

How the data were processed

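Kidney RNA was extracted with TRIzol, and libraries were made with a NEBNext Ultra kit, whose strand setting is not stated. The authors aligned reads with HISAT2 2.0.5 to GRCm38 and made gene counts by featureCounts 1.5.0-p3, and they deposited FPKM. These were normalized for gene length and by a scale for each library. That scale followed the library's size factor (the median over genes of its reads relative to the average library) rather than its reads in genes. Relative to the mean it ran from 0.900 in knockout replicate 2 to 1.098 in wild-type replicate 1, where the size factors were 0.906 and 1.105. FPKM sum to a different total in each library, and no replicates were pooled. Every FPKM value was a whole multiple (within 0.01) of what 1 read is worth, so read counts could be recovered for 100% of the deposited values and gave the depth. Gene names, coordinates and biotypes are those of the deposited table.

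Genes averaging 0.5 FPKM or more were tested on log2(FPKM + 1) with limma 3.58.1 (empirical Bayes with trend, R 4.3.3), 3 knockout against 3 wild-type mice, and p-values were adjusted over all 16166 genes. Fold changes on this scale understate those of low genes. An exact permutation test of 3 against 3 cannot go below p = 0.1 and was not used. The script was tested on simulated data. Lists and members were chosen with earlier results of these data known. Named genes were Ctnnb1 and related checks, the 25 protein-coding genes per direction with the largest fold changes (at least 5 FPKM in the higher group), the 10 with the largest FPKM differences, the 15 with the smallest p, the 5 noncoding with the largest changes, 4 with the smallest p and the first 3 of each list, genes within 1 Mb of Ctnnb1, and the 10 most stable per direction with the largest changes. Some genes that these rules name are not reported here. Other genes, and the promoters of Phf11a, Phf11b and Fcgr4, were chosen after their values were seen. Alternatives were another pseudocount, filter, scaling, threshold or fit, voom on the recovered reads, a block for the replicate number, and leaving out libraries. Promoters came from a RefSeq table and the motif search used 250 bases before the start on both strands. The motifs searched were DR1, HNF4A, HNF1, TCF/LEF, the interferon element and NF-kB.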

Additional observations from a re-analysis of the deposited data

How the results depend on the processing

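Calls depended more on single libraries and on scaling than on the pseudocount, the filter at 1 FPKM or the trend. The number of genes called higher was 578 on the TPM scale, 280 without a filter, 1954 at an adjusted p under 0.1 and 456 without knockout replicates 1 and 3 together, a choice made after seeing the data that leaves 1 knockout library, assumed to vary like the wild-type mice, and 130 to 1631 with 1 library left out. The number called lower was 1178, 193, 1390, 150 and 98 to 818. The lowest numbers came without wild-type replicate 2 and the highest without knockout replicate 3. The cause of these moves was not tested. Ctnnb1 was not called under any alternative. Of 190 called genes among the 342 others named by rule, 92 stayed called under every alternative with all libraries and 65 with each library left out, and 0 changed direction. The equal replicate numbers of the genotypes share only a number: deviations of same-numbered mice correlated at 0.08, 0.20 and 0.04, knockout replicate 3 correlated best with wild-type replicate 1, and the fit with the replicate number as a block called 992 genes higher and 675 lower, 787 and 537 of them called without it.

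List medians that moved by more than the spread between replicates were, on the TPM scale, −0.18 (beta-catenin and adherens junction genes), −0.37 (Wnt feedback genes), −0.71 (beta-catenin targets known in kidney fibrosis), −0.45 (podocyte markers), 1.03 (proximal convoluted tubule markers), 0.82 (proximal straight tubule markers), −0.019 (distal convoluted and connecting tubule markers), −0.36 (intercalated cell markers), −0.54 (endothelium markers), −0.62 (mural and mesangial markers), −1.45 (macrophage and monocyte markers), −0.702 (tubule injury genes), −0.72 (cell cycle and arrest genes), −0.69 (TGF-beta genes), −1.096 (complement genes), −1.68 (chemokines), 0.77 (sugar, phosphate, sulfate and amino acid transporters), 0.47 (endocytosis and brush border genes), 0.11 (proximal tubule transcription regulators), −0.0047 (cholesterol synthesis genes), 0.14 (lipid droplet and fatty acid synthesis genes), 0.41 (antioxidant and glutathione genes), −0.34 (sumo genes), −0.011 (LKB1 and AMPK genes), 0.300 (growth factor, hormone and erythropoietin genes of the kidney), 0.22 (genes of the mitochondrial genome) and −0.38 (sex and substrain check genes). With a pseudocount of 0.01 they were 4.48 (urothelium markers), −1.33 (macrophage and monocyte markers), −1.12 (T cell and NK cell markers), −0.49 (TGF-beta genes) and −1.63 (chemokines), with a pseudocount of 0.1 3.36 (urothelium markers), −1.32 (macrophage and monocyte markers) and −0.48 (TGF-beta genes), and with voom 4.26 (urothelium markers), −1.33 (macrophage and monocyte markers), −1.18 (T cell and NK cell markers) and −0.49 (TGF-beta genes). With 1 library or with knockout replicates 1 and 3 left out, the medians ran from −0.043 to 0.077 (beta-catenin and adherens junction genes), −0.47 to 0.068 (Wnt feedback genes), 0.86 to 1.42 (proximal convoluted tubule markers), 0.77 to 1.105 (proximal straight tubule markers), 0.037 to 0.28 (distal convoluted and connecting tubule markers), −0.29 to 0.39 (principal cell markers), −0.32 to −0.063 (intercalated cell markers), 0.064 to 2.81 (urothelium markers), −0.44 to −0.16 (endothelium markers), −0.61 to −0.398 (tubule injury genes), −0.73 to −0.33 (cell cycle and arrest genes), −1.47 to −0.81 (fibrillar collagen and matrix genes), −0.46 to −0.22 (TGF-beta genes), −0.78 to 0.68 (MHC class II genes), −0.88 to −0.61 (complement genes), 0.66 to 1.03 (organic ion transporters), 0.28 to 0.43 (proximal tubule transcription regulators), 0.49 to 0.799 (antioxidant and glutathione genes), 0.13 to 0.19 (LKB1 and AMPK genes) and 0.41 to 0.63 (growth factor, hormone and erythropoietin genes of the kidney).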

Other observations

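Among the called genes with the smallest p-values outside the lists, Sord, the sorbitol dehydrogenase, was at 309, 317 and 227 FPKM in knockout mice and 77.4, 79.5 and 86.9 FPKM in wild-type mice (log2 fold change 1.78, standard error 0.16, adjusted p = 0.00613). Cth, which makes cysteine from cystathionine, was at 39.3, 48.9 and 39.1 FPKM in knockout mice and 15.7, 14.3 and 14.5 FPKM in wild-type mice (log2 fold change 1.45, standard error 0.12, adjusted p = 0.00613). Galnt11, a glycosyltransferase that starts O-linked sugar chains, was at 57.8, 48.1 and 46.3 FPKM in knockout mice and 17.9, 15.3 and 18.01 FPKM in wild-type mice (log2 fold change 1.51, standard error 0.13, adjusted p = 0.00613). Nckap1l, a regulator of actin in blood cells, was at 4.53, 4.47 and 5.01 FPKM in knockout mice and 11.4, 12.9 and 12.3 FPKM in wild-type mice (log2 fold change −1.22, standard error 0.102, adjusted p = 0.00613), and Lgals9, which encodes galectin-9, at 16.2, 12.6 and 13.7 FPKM in knockout mice and 34.02, 39.4 and 34.6 FPKM in wild-type mice (log2 fold change −1.29, standard error 0.13, adjusted p = 0.00759). Sord, Cth, Galnt11, Nckap1l and Lgals9 remained called in all 6 fits that left out 1 library.

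Of 426 lincRNA genes 25 were higher (5.87%) and 10 lower (2.35%), and of 474 antisense genes 15 (3.16%) and 4 (0.844%), against 6.21% and 4.36% of all genes. The counting is not stated to use strand, so reads of an antisense gene and its partner cannot be told apart. D630029K05Rik, a lincRNA, was at 15.8, 22.4 and 16.2 FPKM in knockout mice and 5.78, 3.03 and 2.73 FPKM in wild-type mice (log2 fold change 2.02, standard error 0.25, adjusted p = 0.00949), and Gm28438, an unprocessed pseudogene, at 85.1, 134 and 94.9 FPKM in knockout mice and 9.71, 12.4 and 11.4 FPKM in wild-type mice (log2 fold change 3.096, standard error 0.19, adjusted p = 0.00285). Reads that Gm28438 shares with related sequences cannot be told apart from its own. The mitochondrial tRNA gene mt-Tg had 0 reads in all knockout mice and 12, 28 and 27 reads in wild-type mice. It was called lower (adjusted p = 0.00426), from few reads of a very short gene. Another such gene, mt-Tr, had 3, 3 and 0 reads in knockout mice and 22, 75 and 44 reads in wild-type mice. It was called lower too (adjusted p = 0.0154). Of 16 mitochondrial tRNA genes 3 were lower and 1 was higher. The mitochondrial gene mt-Nd3 was also lower, and a link between these genes was not tested. Sumo2 had values in separate clusters that did not follow genotype, at 3.41, 3.87 and 25.4 FPKM in knockout mice and 32.3, 26.6 and 3.25 FPKM in wild-type mice, low in knockout replicates 1 and 2 and wild-type replicate 3 and high in the other mice. It was not called (adjusted p = 0.548), and Sumo3 showed no such split, at 30.4, 30.9 and 26.3 FPKM in knockout mice and 21.4, 24.2 and 19.95 FPKM in wild-type mice. Every Sumo3 value in knockout mice lay above every wild-type value, but Sumo3 was not called with all 6 libraries either.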
